A study of Homo sapiens with 24 samples.

Results

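U87-T cells are a human glioblastoma line that was transduced with TERT, the catalytic subunit of telomerase. The response of WT U87-T cells to etoposide was measured by 3′ mRNA sequencing in 2 series, the DAXX series and the ATRX series, each of which carried its own WT cells beside a knockout line. The WT libraries number 12 of the 24 in the experiment. They comprise 3 control and 3 etoposide libraries of the DAXX series and 3 control and 3 etoposide libraries of the ATRX series, so that 6 etoposide libraries were compared with 6 control libraries with the series as a block. Members were chosen by their labels alone. All 4 groups carried the TERT transgene and an empty Cas9 lentiviral vector without a guide for either gene, as the study describes its control line, and the labels call the control cells untreated. The dose and duration of etoposide for these libraries are not given in the sources used here. WT cells of both series belong to 1 line. The study reports biological duplicates or triplicates for its experiments in general. Whether these libraries came from separate cultures is not described. The p-values thus measure the spread between these libraries, part of which may be technical.

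Etoposide traps topoisomerase II on DNA after it has cut both strands, which leaves double-strand breaks. Breaks activate the kinases ATM and ATR, which stabilise the transcription factor p53. p53 then raises the transcription of genes for cell cycle arrest, repair and apoptosis, among them CDKN1A, whose product p21 inhibits cyclin-dependent kinases. The arrest keeps the retinoblastoma family proteins active, and these hold down E2F targets at the G1/S transition and, within the DREAM complex, genes of G2 and mitosis. U87 cells retain WT p53.

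The 12 libraries held 7736867 to 13298557 counts. Values are given in CPM, the counts of a gene relative to the total of its library after TMM scaling, and the upper limit for a gene without counts, taken as 3 counts, was 0.221 to 0.398 CPM in single libraries (counting error only). Since reads come from the 3′ end, CPM is not divided by transcript length. The first principal component held 78.4% of the variance and separated etoposide from control libraries, and the second held 5.37% and separated the series. DAXX was between 18.2 and 36.7 CPM and ATRX between 157.6 and 239 CPM in the WT libraries. All 8 markers of mesenchymal glioma lines were tested, with a summed level of 8593 to 10010 CPM in control and 5083 to 5630 CPM with etoposide. The astroglial marker GFAP had 1 to 3 counts in each library, and S100B and AQP4 were at 0 in all 12. Summed markers were 32.5 to 37.8 CPM in control and 25.7 to 33.3 CPM with etoposide for neurons, and 21.2 to 29.6 and 37.05 to 43.71 CPM for immune cells, of which CD3E was at 0 in all control libraries. For epithelium the sums were 3.07 to 6.54 and 5.17 to 8.0 CPM, and for endothelium 0 and 0.341 to 1.28 CPM. The part of such markers in the results below was not tested.

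Etoposide changed the level of most genes tested in WT cells, relative to the rest of each library. TMM scaling assumes that most genes do not change, so the direction of small changes depends on it. Of 15535 genes tested, 5846 were higher and 5438 lower at an FDR of 5% (edgeR quasi-likelihood test), which is 37.6% and 35.0% of all genes, or 72.6% together. At least 2-fold changes were found for 2203 genes higher (14.2%) and 1838 lower (11.8%), at least 8-fold changes for 346 higher and 72 lower, and at least 32-fold changes for 117 higher and 2 lower. The genes that rose at least 2-fold had a median level of 1.37 CPM in control libraries, those that fell at least 2-fold 31.9 CPM, and all genes tested 14.3 CPM. The 2-fold counts depended on the treatment of low counts. Without a filter 3968 genes were higher and 2234 lower, and with a minimum of 10 counts per library the order was the opposite, with 1177 higher and 1397 lower. Libraries with etoposide also had more genes with at least 1 count, 22181 to 22865 against 19634 to 20375 in control, although the totals of the etoposide libraries were the lower within each series.

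CDKN1A (ENSG00000124762, GRCh37 chromosome 6, 36644237 to 36655114) was among the largest gains in CPM. It was at 147, 153 and 137 CPM in the DAXX series control libraries and at 5635, 5566 and 5382 CPM with etoposide. In the ATRX series it was at 148, 149 and 154 CPM in control and at 5775, 5690 and 5779 CPM with etoposide. The libraries of the 2 treatments were far apart and the series hardly differed. CDKN1A rose by 5.25 on the log2 scale (SE 0.04, adjusted p = 2.5e-26, edgeR), and the series differed in it by 0.01 (adjusted p = 0.96). MDM2 (chromosome 12, 69201957 to 69239324), the ubiquitin ligase that p53 induces and that degrades p53, was at 51.7, 45.0 and 55.9 CPM in control and 852, 854 and 845 CPM with etoposide in the DAXX series. The corresponding values of the ATRX series were 46.2, 53.1 and 50.5 CPM and 909, 899.7 and 958 CPM. MDM2 rose by 4.14 on the log2 scale (SE 0.06, adjusted p = 6.3e-22, edgeR).

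p53 binds pairs of 10-base half-sites, each with a C and a G that frame the core. Pairs with at most 2 mismatches, none of them at those C and G positions, were searched within 3000 bases of the start site on GRCh37, a search that was added after the data had been seen. The sites below are those of 6 genes with large increases, and other listed genes also had sites. Each is written along the strand of its gene, and the capitals mark the 4 core bases of each half-site.

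CDKN1A, chr6:36644226-36644245: gaaCATGtcccaaCATGttg

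MDM2, chr12:69202703-69202722: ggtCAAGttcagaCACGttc

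GADD45A, chr1:68152458-68152477: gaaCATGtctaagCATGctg

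GDF15, chr19:18496118-18496137: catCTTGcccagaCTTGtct

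BTG2, chr1:203272770-203272789: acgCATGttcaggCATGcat

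RRAD, chr16:66961987-66962006: gaaCATGcccggcCATGtct

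The sites of GADD45A and RRAD had 1 mismatch and the other 4 sites had 2. Sites not shown include those of PLK2 and ZMAT3, which had 0 mismatches. PLK2 had the smallest increase (0.75) of the p53 targets of cell cycle arrest described below. A relation between the match of a site and the size of the increase was not tested. Relative to the start site of each gene's canonical transcript, the site of CDKN1A lay at −2256, that of BTG2 at −1868, that of GDF15 at −840 and that of RRAD at −2558, and the sites of MDM2 and GADD45A lay 756 and 1584 bases downstream. Of 56 genes of the p53 lists with a start site, 17 (30.4%) had such a pair, as had 4.64% of 14647 genes tested, 7.98% of those that rose at least 2-fold and 4.14% of those that fell at least 2-fold. The p53 lists hold genes already known as p53 targets or regulators, so their higher share is not independent of how they were chosen. A match is a run of letters in a window and not a measured binding site.

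All 12 tested p53 targets of cell cycle arrest rose (against 37.6% of all genes), with a median log2 fold change of 3.35, where the median of all genes was 0.05. GDF15, a secreted stress cytokine, had the largest change among them. GDF15 was between 9.56 and 12.2 CPM (median 11.6) in control and between 3935 and 4260 CPM (median 4134) with etoposide, a rise of 8.52 on the log2 scale (SE 0.06, adjusted p = 9.8e-27, edgeR). BTG2, an antiproliferative regulator of mRNA decay, rose from 0.235 to 0.777 CPM (median 0.561) to 42.0 to 66.1 CPM (median 58.6), or by 6.68 on the log2 scale. Its p53 pair is shown above. BTG2 passed the filter on low counts only through the etoposide libraries, so its direction was fixed by the filter. With at least 10 counts in every WT library, 10 members of the list were tested and all 10 rose. GADD45A, a stress sensor, was at 50.03 to 78.3 CPM (median 63.6) in control and at 969 to 1371 CPM (median 1126) with etoposide, a rise of 4.17 on that scale (SE 0.12, adjusted p = 8.3e-17, edgeR). SESN1 and SESN2, the sestrins that restrain mTORC1, rose by 3.31 and 3.39, and the 14-3-3 protein gene SFN rose by 3.28. The smallest increases of the list were those of CCNG1 (1.25) and PLK2 (0.75). In all 12 genes the etoposide libraries were higher than the control libraries of the same series without overlap, which held for 27.4% of all genes tested.

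Of 17 tested p53 targets of apoptosis, 15 rose (against 37.6% of all genes) and 2 fell, with a median log2 fold change of 1.70. With at least 10 counts in every WT library, 14 members of this list were tested, of which 13 rose and 0 fell. TP53INP1, a cofactor in autophagy and apoptosis, was at 3.90 to 6.80 CPM (median 5.06) in control and at 179 to 201 CPM (median 191) with etoposide, a rise of 5.19 on the log2 scale (SE 0.08, adjusted p = 7.9e-21, edgeR). TP53I3, an oxidoreductase, rose by 4.55. The death receptor genes TNFRSF10A and FAS rose by 4.38 and 3.38, and the decoy receptor gene TNFRSF10C rose by 4.07. Among the BCL2 family, the BH3-only gene BBC3 (PUMA) rose by 4.15, PMAIP1 (NOXA) by 1.56 and the effector BAX by 1.11. APAF1, the scaffold of the apoptosome, rose by 0.63. The 2 members that fell were TNFRSF6B, a soluble decoy receptor, by 1.19 on the log2 scale and PERP, a desmosomal protein, by 0.14. The call of PERP (adjusted p = 0.02, edgeR) was lost with the replicate block, with at least 10 counts in every library and without etoposide replicate 1 of the ATRX series (adjusted p up to 0.14).

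Genes of the p53 family, its regulators and its feedback targets moved in both directions, with a median log2 fold change of 1.03. Of 13 tested, 8 were higher and 5 lower, beside 37.6% and 35.0% of all genes. The share that fell was near that of all genes. RRAD, a small GTPase, rose by 5.80 (SE 0.07, adjusted p = 1.2e-22, edgeR), from 19.5 to 25.2 CPM (median 23.3) to 1016 to 1498 CPM (median 1295). TP73, a member of the p53 family, was at 0 to 0.240 CPM in control and at 2.78 to 7.39 CPM (median 3.70) with etoposide. TP73 had at most 3 counts in each control library, so its direction was fixed by the filter on low counts. With at least 10 counts in every WT library, 7 of 12 tested members of this list were higher and 5 lower. The phosphatase gene PPM1D, which switches off damage signalling, rose by 1.90. The 5 genes that fell were the kinase gene HIPK2 (−1.45), the ubiquitin ligase genes COP1 (−1.34) and SIAH1 (−0.93), the deubiquitinase gene USP7 (−1.09) and MDM4 (−0.33), the partner of MDM2. All 15 tested p53 targets of repair and metabolism rose (against 37.6% of all genes), with a median of 2.28. The study named CYP4F3 and PARDG6, taken here as PARD6G, as p53-response genes in its own etoposide experiment. The count for this list is therefore partly drawn from the same study. CYP4F3, a leukotriene hydroxylase, rose by 7.04 from 0 to 0.583 CPM (median 0.161) to 13.9 to 51.8 CPM (median 29.1). CYP4F3 passed the filter only through the etoposide libraries, so its direction was fixed as well. With at least 10 counts in every WT library, 14 members of the repair and metabolism list were tested and all 14 rose. FDXR, the ferredoxin reductase of mitochondria, rose by 4.82. The nucleotide excision repair genes DDB2 and XPC rose by 2.67 and 2.64, and RRM2B, the ribonucleotide reductase subunit of arrested cells, rose by 2.20. PARD6G (0.28) and SLC12A4 (0.45) had the smallest increases.

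**Figure D1:**
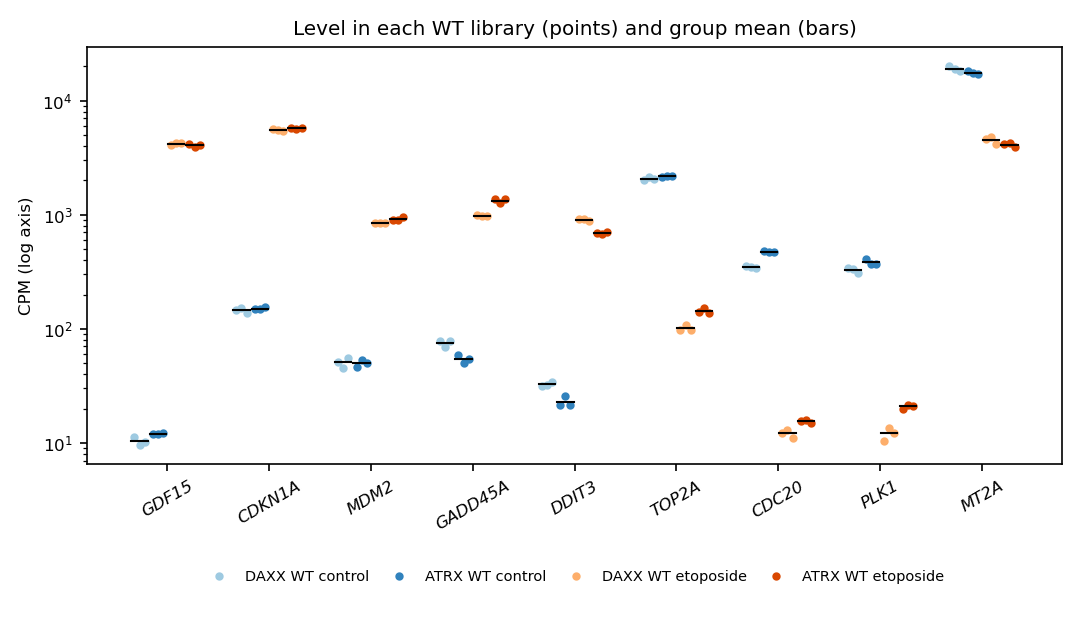
Level of 9 genes in CPM (log axis) in each of the 12 WT libraries (points), with the mean of each group of 3 as a bar. GDF15, CDKN1A, MDM2, GADD45A and DDIT3 were higher in all etoposide libraries, and TOP2A, CDC20, PLK1 and MT2A were lower in all of them.

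The largest rises of protein-coding genes outside these lists involved genes that were silent or nearly so in control cells. LCE1C, LCE1B and LCE1E encode late cornified envelope proteins of the epidermis. LCE1C had 0 counts in all 6 control libraries and was at 49.3, 49.9 and 47.8 CPM with etoposide in the DAXX series and at 92.7, 87.02 and 95.1 CPM in the ATRX series. Against the limit of 3 counts per library, LCE1C was at least 150-fold higher in the DAXX series and at least 391-fold higher in the ATRX series, and LCE1B at least 54.5-fold and at least 203-fold higher. LCE1E was at 0 to 0.389 CPM in control and at 15.7 to 42.3 CPM (median 28.8) with etoposide. LCE1F had 3 counts in all in DAXX series control libraries, and its ratio there was 125 (95% Poisson interval 42.6 to 604), and in the ATRX series it was at least 111-fold higher. The LCE1 genes are near-identical neighbours on chromosome 1, so reads may have been shared among them and single values are uncertain.

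Other genes with large rises were ALOXE3, an epidermal lipoxygenase (log2 fold change 5.43), DNAI3, an axonemal dynein subunit (4.97), and the aquaglyceroporin gene AQP3 (4.96). The highest control library among the 3 genes was at 2.36 CPM, for DNAI3, and the lowest etoposide library at 7.51 CPM, for ALOXE3. The noncoding RNAs PINCR and UNC5B-AS1 rose from similarly low levels. PINCR, a long noncoding RNA, had 1 control count in DAXX series cells and 2 in ATRX series cells and was at 41.7 to 50.2 CPM (median 44.01) with etoposide. The ratios were 1250 (95% Poisson interval 224 to 49400) and 851 (236 to 7030). UNC5B-AS1, which is antisense to UNC5B, was at least 106-fold higher in the DAXX series, and its ratio was 1590 (286 to 62900) in the ATRX series, where it had 1 control count. UNC5B itself rose by 2.83 on the log2 scale. Whether the counting used strand is not given in the sources used here, so reads of this pair cannot be told apart. In total 178 tested genes had at most 3 counts in every control library and 8 had at most 3 in every etoposide library. These genes passed the filter on low counts only through the other treatment, so their direction was fixed by the filter. Among the 8, the bone morphogenetic protein gene BMP6 was at 0.640 to 1.29 CPM (median 0.989) in control and at 0 to 0.352 CPM with etoposide. The others with the highest control levels were the histone gene H2AC21, the U6 pseudogene RNU6-26P and the noncoding loci CTD-2105E13.13 and ENSG00000227992, with ratios of control to etoposide from 3.64 to 10.9 in single series.

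In absolute terms, the largest gains in CPM were those of BCYRN1, CDKN1A, GDF15, FTH1 and MALAT1. BCYRN1, a primate-specific RNA derived from an Alu element, was at 48697, 66958 and 74129 CPM in control and at 124870, 120100 and 124440 CPM with etoposide in the DAXX series, and over both series it rose by 0.98 on the log2 scale (SE 0.08, adjusted p = 7.1e-10, edgeR). Its reads cannot be separated with certainty from other Alu copies. FTH1, the ferritin heavy chain gene, which has many processed pseudogenes, rose by 0.97, and the nuclear RNA MALAT1 rose by 1.04. The largest losses were those of MT2A, TUBA1B, ACTG1, HSP90AA1 and VIM. MT2A, a metallothionein that binds zinc and copper, was at 17132 to 20206 CPM (median 18312) in control and at 3906 to 4860 CPM (median 4248) with etoposide, a change of −2.08 on the log2 scale (SE 0.04, adjusted p = 1.1e-19, edgeR). The tubulin gene TUBA1B changed by −1.89, the actin gene ACTG1 by −1.39, the chaperone gene HSP90AA1 by −1.17 and the intermediate filament gene VIM by −1.30. TUBA1B and ACTG1 have near-identical copies, so their single values are uncertain.

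Genes of G2 and mitosis fell as a group. All 49 tested members were lower at an FDR of 5% (against 35.0% of all genes), 48 of them at least 2-fold, with a median log2 fold change of −3.27. CDC20, the activator of the anaphase-promoting complex (chromosome 1, 43824652 to 43828874), was at 358, 347 and 339 CPM in control and at 12.2, 13 and 11.1 CPM with etoposide in the DAXX series. In the ATRX series it was at 479, 473 and 475 CPM and at 15.5, 15.8 and 15.0 CPM. The treatments did not overlap in either series. CDC20 changed by −4.90 on the log2 scale (SE 0.05, adjusted p = 1.2e-23, edgeR), the largest fall of any protein-coding gene that met the rule for naming. In bulk RNA, fewer cells in a phase of the cycle and less RNA per cell cannot be told apart.

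The mitotic kinase genes PLK1, PLK4, BUB1 and AURKB changed by −4.44, −4.77, −4.35 and −3.86. PLK1 was at 307 to 408 CPM (median 357) in control and at 10.5 to 21.7 CPM (median 16.7) with etoposide. Cyclin A2 (CCNA2) changed by −4.28, cyclin B1 (CCNB1) by −2.86 and their kinase gene CDK1 by −3.32. Genes of cytokinesis and the spindle were among the lowest, namely ANLN (−4.31), KIF23 (−4.41), ASPM (−4.41) and CDCA8 (−4.26). Outside the list, HJURP, which loads the centromeric histone, changed by −4.77, DEPDC1 by −4.60 and FAM72A by −4.55, though FAM72A has near-identical copies and is uncertain. Within the list, LMNB1, which encodes lamin B1, was at 88.7 to 117 CPM (median 105) in control and at 2.71 to 5.69 CPM (median 4.10) with etoposide, a change of −4.60 (SE 0.10, adjusted p = 5.3e-19, edgeR). MKI67, the proliferation marker, changed by −2.69 and the mitotic transcription factor gene FOXM1 by −1.91. PTTG1, which encodes securin, had the smallest change of the list, −0.18, and its libraries overlapped between treatments.

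Promoters of G2 and mitosis genes are known for the cell cycle genes homology region (CHR), with the letters TTTGAA or TTTAAA, next to CCAAT boxes. Both were searched on both strands in the 300 bases of RefSeq promoters of GRCh38.p14, from 250 before to 50 after the start. A CHR match was found for 38 of 42 genes of the list with a promoter (90.5%), for 21.8% of 10046 protein-coding genes tested and for 8424 of all 35116 promoters of the table. Both CHR and CCAAT were found for 71.4% of the list and for 9.21% of the protein-coding genes. TTTAAA is its own reverse complement. The stretches below, of 60 bases along the strand of the gene, are from 6 genes of the list with a CCAAT box near the CHR, and the capitals mark the CHR letters and any CCAAT or its complement ATTGG.

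CDC20, chr1:43358886-43358945: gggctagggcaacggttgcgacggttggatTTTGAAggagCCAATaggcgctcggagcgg

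CCNB1, chr5:69167090-69167149: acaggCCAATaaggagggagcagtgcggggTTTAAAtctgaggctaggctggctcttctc

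CCNB2, chr15:59105087-59105146: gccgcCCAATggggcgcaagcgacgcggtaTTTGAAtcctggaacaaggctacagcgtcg

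CDK1, chr10:60778379-60778438: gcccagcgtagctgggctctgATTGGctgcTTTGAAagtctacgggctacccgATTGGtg

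PLK1, chr16:23678771-23678830: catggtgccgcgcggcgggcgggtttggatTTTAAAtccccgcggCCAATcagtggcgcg

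KIF23, chr15:69414264-69414323: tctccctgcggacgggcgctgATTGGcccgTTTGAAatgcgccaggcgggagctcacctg

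Relative to the start, the CHR letters shown begin at −65 in CDC20, −30 in CCNB1, −29 in CCNB2, −69 in CDK1, −88 in PLK1 and −55 in KIF23, and all but CCNB1 hold further CHR matches in the promoters of the table. These 6 genes changed by −4.90, −2.86, −2.62, −3.32, −4.44 and −4.41 in that order. Among all protein-coding genes with a promoter, a CHR match was found for 29.6% of those that fell at least 2-fold and for 22.3% of those that rose at least 2-fold.

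DNA replication and G1/S genes fell less steeply, with a median of −1.28. Of 40 members 33 were lower (against 35.0% of all genes), 1 was higher and 6 were not called. The flap endonuclease gene FEN1 changed by −2.84 (131 to 176 CPM in control, median 149, and 18.4 to 22.1 CPM with etoposide, median 20.4), and the clamp loader gene RFC4 by −2.83. Cyclin E2 (CCNE2) changed by −2.54 and the replicative helicase genes MCM3 and MCM6 by −2.42 and −2.26. Not all members moved. The sliding clamp gene PCNA, which is both an E2F and a p53 target, was at 92.1 to 132 CPM (median 116) in control and at 100.2 to 124 CPM (median 117) with etoposide, a log2 difference of 0.04 (adjusted p = 0.67, edgeR). MCM7 was likewise not called. Thymidine kinase 1 (TK1) rose by 0.56 (163 to 248 CPM in control, 224 to 382 CPM with etoposide). The E2F letters TTTCCCGC or TTTGGCGC, on either strand, were found for 16 of 34 promoters of this list (47.1%), for 4.57% of the protein-coding genes tested and for 4.76% of the G2 and mitosis genes.

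Genes of homologous recombination and the Fanconi pathway were lower for 23 of 28 members, against 35.0% of all genes. Another 4 were higher, and the median was −1.34. RAD54L and RAD54B, translocases of homologous recombination, changed by −3.61 and −2.90, FANCD2 by −2.43 and BRCA1 by −0.93. RAD54L passed the filter on low counts only through the control libraries, so its direction was fixed by the filter. With at least 10 counts in every WT library, 21 of 26 tested members of this list were lower and 4 higher. The 4 that rose were RAD52 (0.80), RAD50 (0.41), XRCC3 (0.28) and RAD51C (0.16). The call of RAD51C (adjusted p = 0.04, edgeR) was lost under 13 of 20 alternatives, the replicate block and 10 of the 12 that leave out 1 library included (adjusted p up to 0.3), which left 3 members higher. Of 15 end joining genes 8 fell and 5 rose, where 35.0% of all genes fell and 37.6% rose. The polymerase theta gene POLQ changed by −2.18, RIF1 by −1.67 and the Ku subunit genes XRCC5 and XRCC6 by −1.62 and −0.98, whereas the gap-filling polymerase genes POLL and POLM rose by 1.14 and 0.67, SHLD1 by 1.11, PAXX by 0.69 and ligase IV (LIG4) by 0.22. The call of LIG4 was lost without a filter on low counts and with all 24 libraries in one model (adjusted p up to 0.086, edgeR). Damage signalling genes were lower for 14 of 18 members (against the same 35.0%) and higher for 1, RAD9A (0.50), with a median of −1.16. The G2 checkpoint kinase gene WEE1 changed by −2.89, the phosphatase gene CDC25A by −2.26 and CHEK1 by −1.17. ATM was at 15.96 to 21.6 CPM in control and at 14.4 to 21.7 CPM with etoposide, and was not called (adjusted p = 0.46, edgeR).

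TOP2A, the isoform of topoisomerase II of proliferating cells and a target of etoposide (chromosome 17, 38544777 to 38574148), was at 2025, 2150 and 2065 CPM in control and at 98.6, 107 and 97.3 CPM with etoposide in the DAXX series. In the ATRX series it was at 2155, 2208 and 2187 CPM in control and at 142, 152 and 138 CPM with etoposide. TOP2A changed by −4.14 on the log2 scale (SE 0.07, adjusted p = 1.9e-20, edgeR). TOP2B, the isoform of resting cells, was at 58.3 to 73.5 CPM (median 64.6) and at 30.5 to 40.9 CPM (median 35.7), a change of −0.88. Of 9 tested genes for the targets, adduct repair and drug export, 6 fell and 2 rose, beside 35.0% and 37.6% of all genes. TDP1, which resolves topoisomerase adducts, changed by −1.74, while the SUMO ligase gene ZNF451 and the exporter gene ABCC3 rose by 0.55 and 0.65. Of 14 histone genes 9 were lower and 5 higher, and the share that rose was near the 37.6% of all genes. The falls were led by H2AX (−2.38) and H2BC12 (−2.05). Among the genes that rose were H2BC21 (1.08), H1-10 (1.04), H4C8 (0.85) and H2AC6 (0.45). Histone genes share sequence, and values of single members are uncertain.

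**Figure D2:**
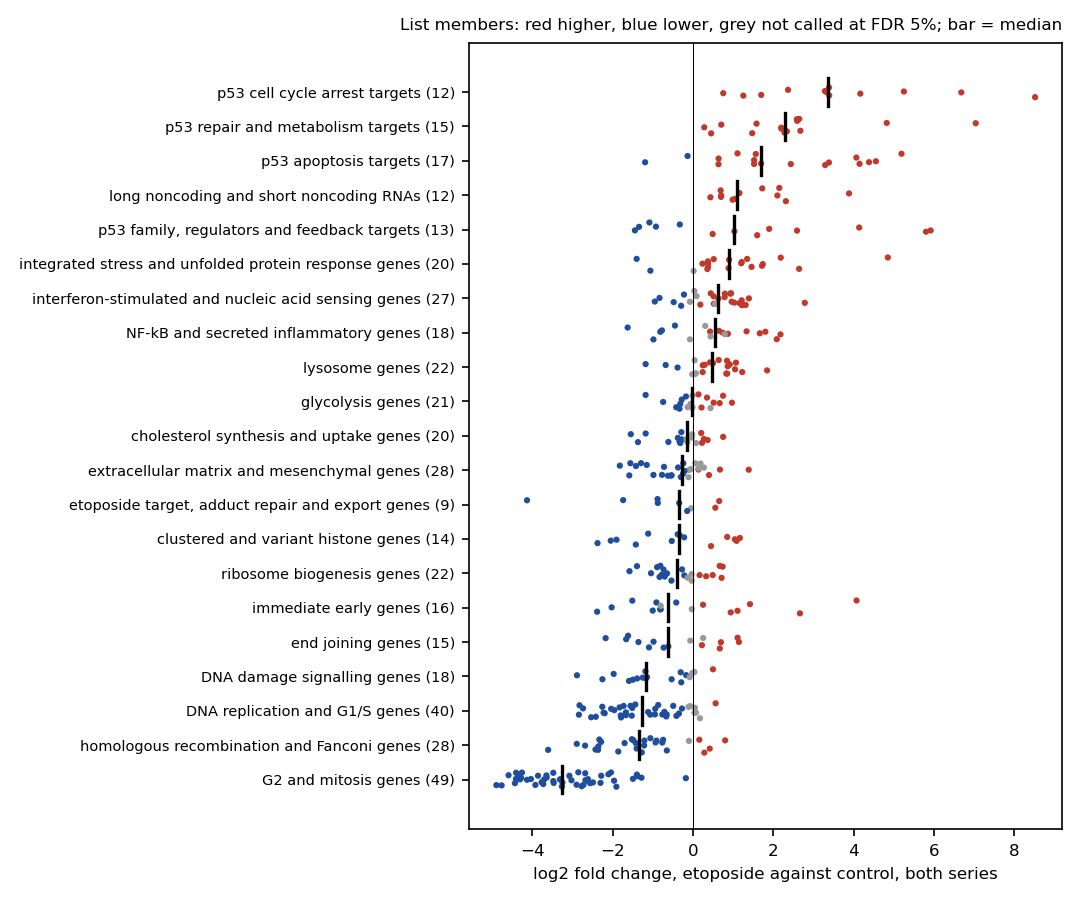
Log2 fold change over both series (horizontal axis) of each tested member of 21 gene lists, ordered by their medians (bars), with the number tested in parentheses. The p53 arrest targets had the highest median, 3.35, and the G2 and mitosis genes the lowest, −3.27.

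Most genes of the stress response and lysosome lists rose, against 37.6% of all genes. Of 20 genes of the integrated stress and unfolded protein responses 17 were higher and 2 lower, with a median of 0.89. DDIT3 (CHOP), a proapoptotic transcription factor, was at 21.4 to 34.2 CPM (median 28.8) in control and at 676 to 924 CPM (median 791) with etoposide, a rise of 4.85 (SE 0.05, adjusted p = 2.8e-23, edgeR). Its regulator ATF4 rose by 1.74, the pseudokinase gene TRIB3 by 2.64 and the chaperone gene HSPA5 by 1.2. The 2 genes that fell were the lipoprotein receptor gene VLDLR (−1.40) and the disulfide isomerase gene PDIA4 (−1.06). Lysosome genes were higher for 15 of 22 and lower for 3, with a median of 0.46. The sialidase gene NEU1 rose by 1.84 and the saposin precursor gene PSAP by 1.22, while CTSL (−1.18) and LAMP2 (−0.39) were among those that fell.

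Interferon-stimulated and nucleic acid sensing genes were higher for 18 of 27 (against 37.6% of all genes) and lower for 5. Their median log2 fold change was 0.63, at low levels. IRF7, the interferon regulatory factor, was at 1.24 to 2.74 CPM (median 1.66) in control and at 10.7 to 15.3 CPM (median 12.8) with etoposide, a rise of 2.78 (SE 0.15, adjusted p = 8.8e-13, edgeR). The ubiquitin-like modifier gene ISG15 rose by 1.39 and the DNA sensor gene CGAS by 0.93. IFI44 (−0.95), the exonuclease gene TREX1 (−0.84), IFIT1 (−0.48), OAS3 (−0.30) and IFIT5 (−0.23) fell. Of 18 NF-kB and secreted inflammatory genes 9 rose and 5 fell, with a median of 0.54, beside 37.6% and 35.0% of all genes. IL1A rose by 2.18 from 0 to 0.800 CPM to 0.968 to 2.08 CPM, and the macrophage growth factor gene CSF1 rose by 2.08. IL1A passed the filter on low counts only through the etoposide libraries, so its direction was fixed by the filter. With at least 10 counts in every WT library, 7 of 12 tested members rose and 4 fell. CXCL8 rose by 1.33, whereas IL6 was at 0.112 to 0.810 CPM in control and at 0.478 to 1.36 CPM with etoposide and was not called (adjusted p = 0.072, edgeR). CCL2 changed by −1.63, TNFAIP2 by −0.99, BIRC3 by −0.82, CXCL1 by −0.78 and NFKBIA by −0.45. The call of CXCL1 (adjusted p = 0.048, edgeR) was lost under 13 of 19 alternatives, the replicate block and 9 that leave out 1 library included (adjusted p up to 0.13).

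Of 16 immediate early genes 6 were higher and 8 lower, shares near or not far above those of all genes (37.6% and 35.0%). ATF3, a stress-induced repressor, rose by 4.07, EGR2 by 2.66, FOSB by 1.42, DUSP1 by 1.11, JUND by 0.94 and JUNB by 0.25, and MYC and FOSL1 changed by −2.39 and −2.03. Ribosome biogenesis genes were lower for 13 of 22 (against 35.0% of all genes) and higher for 6, with a median of −0.41. UBTF, the activator of ribosomal RNA transcription, changed by −1.58 and the pseudouridine synthase gene DKC1 by −1.40, while POLR1A (0.74), RRN3 (0.71), PES1 (0.66), RRP9 (0.49), POLR1C (0.33) and NOP2 (0.16) rose. Extracellular matrix and mesenchymal genes were lower for 17 of 28 (against 35.0% of all genes) and higher for 4, with a median of −0.28. N-cadherin (CDH2) changed by −1.82 and the YAP target CCN2 by −1.59, and TIMP3 (1.39), MMP3 (0.67), COL6A2 (0.40) and MMP2 (0.13) rose. The calls of NOP2 (adjusted p = 0.037, edgeR) and MMP2 (adjusted p = 0.028, edgeR) were each lost under 10 of 20 alternatives, the replicate block and 7 that leave out 1 library included, with adjusted p up to 0.16 and 0.22.

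Cholesterol genes were lower for 9 and higher for 5 of 20, not far from the 35.0% and 37.6% of all genes, with INSIG1 at −1.37. LSS (0.75), SREBF2 (0.36), MVK (0.27), NSDHL (0.22) and FDPS (0.20) rose. Of 21 glycolysis genes 7 were higher and 7 lower, shares close to those of all genes, with a median of −0.02. The hexokinase gene HK1 and the phosphofructokinase gene PFKP changed by −1.18 and −0.75, and the paralogue PFKL and the glucose transporter gene SLC2A3 rose by 0.75 and 0.97. All 12 tested noncoding RNAs of a further list rose, against 37.6% of all genes, with a median of 1.10. Those hosting small nucleolar RNAs, SNHG1 and GAS5, rose by 2.31 and 2.15, NEAT1, the scaffold of paraspeckles, by 2.10 and PURPL, a p53-induced RNA, by 3.88. Mitochondrially encoded genes were not analysed here.

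Responses of the 2 series could be compared with no shared library. In the DAXX series 9750 genes (62.8%) were called, with 4892 increases and 4858 decreases, and the ATRX series had 10551 calls (67.9%), with 5372 increases and 5179 decreases. Called in both with the same direction were 8418 genes, 4129 higher and 4289 lower, which is 86.3% of the calls of the DAXX series and 79.8% of those of the ATRX series. Opposite directions were found for 69 genes, or 0.813% of the genes called in both. Across the 15535 genes the log2 fold changes had a Pearson correlation of 0.887 and a Spearman correlation of 0.881, and the latter was 0.942 across the 8981 genes with a mean of at least 10 CPM. Genes do not vary independently, so these values are descriptions. Within each series, all etoposide libraries lay above all control libraries for 27.4% of genes in both series, and below them for 28.1%.

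**Figure D3:**
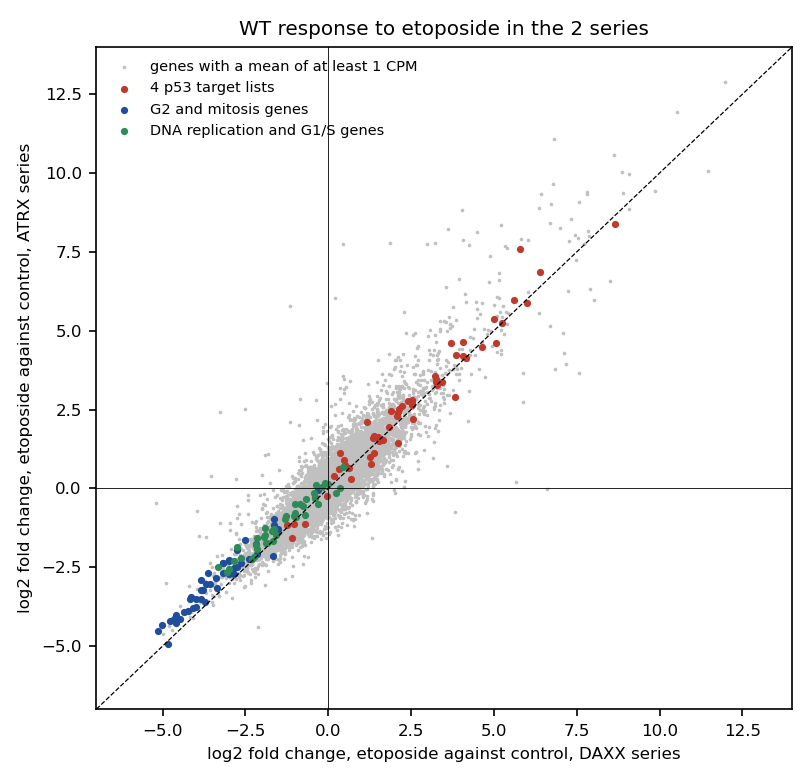
Log2 fold change of 14481 genes with a mean of at least 1 CPM of the DAXX series (horizontal axis) against that of the ATRX series (vertical axis), with equality as a dashed line and 4 genes beyond the axes not drawn. Most members of the p53 lists lie along the line at the upper right, and most G2 and mitosis genes lie above it at the lower left.

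Shared increases of at least 2-fold were somewhat larger in the ATRX series. Of 1860 such genes 1167 (62.7%) had the larger log2 fold change there, with medians of 1.79 in the ATRX series and 1.62 in the DAXX series. Shared decreases of at least 2-fold had medians of −1.42 in both series (1730 genes). These medians are descriptions. The response itself differed between the series at an FDR of 5% for 1372 genes (8.83%), for 152 of them by at least 2-fold. The response was higher in the ATRX series for 700 and lower for 672. With library totals in place of TMM scaling the split was 873 and 516, and without control replicate 3 of the DAXX series it was 457 and 605. With all 24 libraries in one model 289 and 237 genes were called. The median absolute difference between the series was 0.23 on the log2 scale, where the median absolute response was 0.57.

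G2 and mitosis genes fell further in the DAXX series. The response was higher (the fall smaller) in the ATRX series for 47 of 49 members, and the difference was called for 26 in that direction (against 4.51% of all genes) and for 1, FOXM1, in the other. The medians of the list were −3.62 for the DAXX and −3.03 for the ATRX series. In control cells the levels were alike, with a median log2 ratio of the ATRX to the DAXX series of 0.03, and with etoposide the ratio was 0.51. PLK1 differed by 0.56 (adjusted p = 0.0054, edgeR), LMNB1 by 0.67, ANLN by 0.52 and TOP2A by 0.44. CDC20, with the largest fall of the list, differed by −0.11 (adjusted p = 0.61, edgeR). Called in this direction were 22 to 29 members under other scalings, the DESeq2 test, other filters on low counts, without BCYRN1 and with a replicate block, 18 to 25 with each library left out in turn, and 13 with all 24 libraries in one model. Of the DNA replication and G1/S genes 12 of 40 differed in the same direction and 1 in the other, and of the p53 arrest targets 4 of 12 and 0, beside the same 4.51% of all genes.

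Single genes differed more. SNAPC1, a subunit of the small nuclear RNA activating complex, was at 132, 134 and 147 CPM in control and at 242, 249.6 and 247 CPM with etoposide in the DAXX series. In the ATRX series it was at 92.7, 94.5 and 91.4 CPM in control and at 576, 563 and 566 CPM with etoposide. Thus its control level was lower and its etoposide level higher in the ATRX series, and the response differed by 1.77 (adjusted p = 7.0e-13, edgeR). ADAMTS1, a secreted metalloprotease, went in opposite directions. It fell from 79.5, 72.2 and 74.7 CPM to 56.6, 53.9 and 53.5 CPM in the DAXX series and rose from 79.97, 64.9 and 60.8 CPM to 148, 152 and 158 CPM in the ATRX series. The difference was 1.61 (adjusted p = 1.9e-08, edgeR), and the pooled log2 fold change of 0.41 was not called (adjusted p = 0.068).

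AKAP3, an A-kinase anchoring protein gene, rose from 0.486, 0.787 and 0.704 CPM to 7.64, 6.93 and 7.69 CPM in the DAXX series, and from 1.18, 0.640 and 0.725 CPM to 32.9, 35.5 and 34.9 CPM in the ATRX series. Its difference was 1.82 (adjusted p = 0.0073, edgeR), and ALOXE3 differed by 1.76 and RP11-782C8.2, a noncoding RNA, by 1.66. Smaller responses in the ATRX series were found for NINJ1, which acts in plasma membrane rupture. NINJ1 rose from 30.6, 27.9 and 29.3 CPM to 75, 79.9 and 79.9 CPM in the DAXX series and from 48.6, 41.8 and 49.2 CPM to 62.9, 54.6 and 60.3 CPM in the ATRX series, a difference of −1.07 (adjusted p = 5.4e-06, edgeR). The lysosomal adaptor gene RILP differed by −1.05, the small nucleolar RNA SNORA19 by −1.21 and the loci ENSG00000273333 and ENSG00000271698 by −1.06 and −1.73. GADD45A, named above among the arrest targets, differed by 0.90 (adjusted p = 2.0e-06, edgeR), with a lower control level and a higher etoposide level in the ATRX series.

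**Figure D4:**
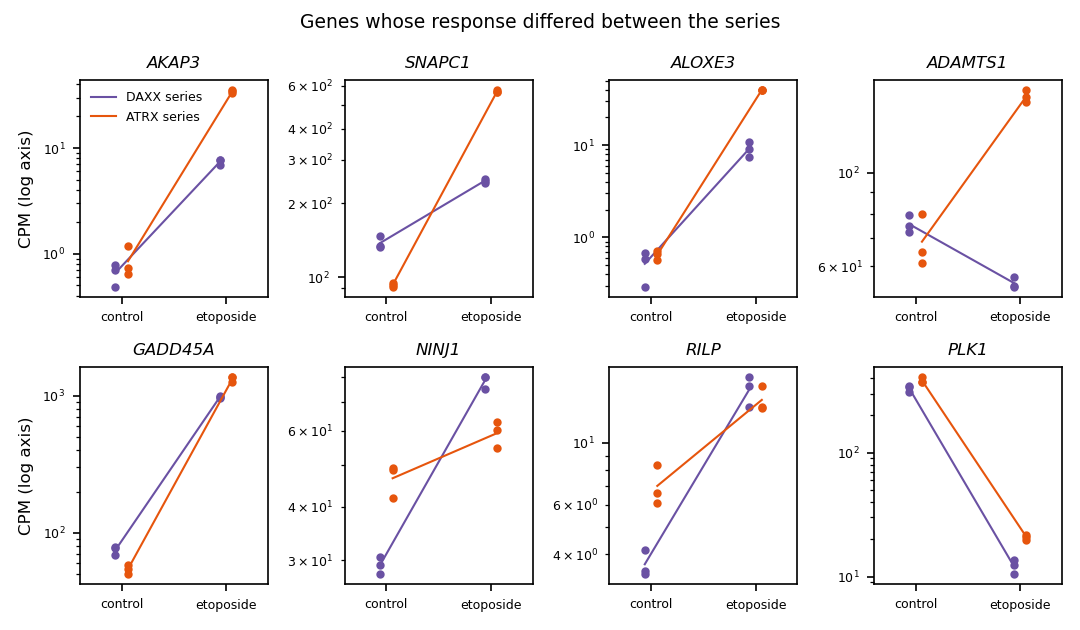
Level of 8 genes in CPM (log axis, its range set for each gene) in each WT library (points) under control and etoposide, with lines joining the group means of the DAXX and the ATRX series. ADAMTS1 fell in DAXX series cells and rose in ATRX series cells, and the other 7 genes moved in the same direction in both with unequal size.

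The 69 genes called in opposite directions were selected by that difference, so their values are a description. SECTM1, a secreted and transmembrane protein gene chosen here after its values were seen, went from 3.67 ± 0.45 to 6.35 ± 1.53 CPM (SD, n = 3) in the DAXX series and from 7.88 ± 0.66 to 4.38 ± 0.14 CPM (SD, n = 3) in the ATRX series. The difference of the response was −1.64.

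The response varied with gene length, which was known for 97.1% of the genes tested. Genes were divided into 5 classes of equal size. In the shortest class, up to 6946 bases long on the genome, the median log2 fold change was 0.28, with 44.6% higher and 22.4% lower. In the next classes the medians were 0.21, 0.10 and −0.07. In the longest class, of at least 91871 bases, the median was −0.29, with 24.1% higher and 50.9% lower. Protein-coding genes alone showed medians from 0.26 in the shortest to −0.37 in the longest class. Both series followed this order, with medians of −0.33 for the DAXX and −0.27 for the ATRX series in the longest class. By exon length the medians ran from 0.29 to −0.14. Long noncoding RNAs were higher for 45.7% and lower for 13.2% of 1772 genes, at a median level of 2.15 CPM, and protein-coding genes were higher for 36.8% and lower for 39.5% of 12418 genes, at a median of 21.6 CPM. Genes of the 2 kinds differed in length too, with medians of 6980 and 34600 bases, and the parts of length, kind and level were not tested apart.

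**Figure D5:**
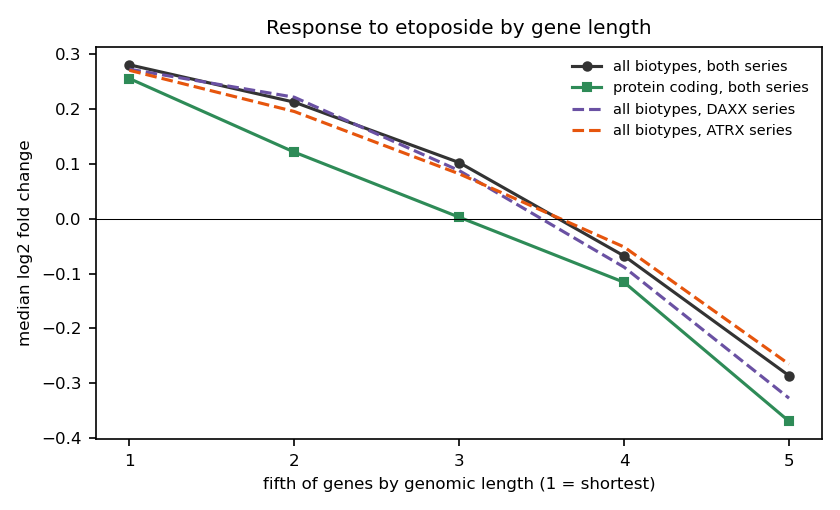
Median log2 fold change (vertical axis) of the genes tested, by class of genomic length from the shortest (1) to the longest (5), for all genes and for protein-coding genes over both series (solid lines) and for all genes in each series (dashed lines). Medians for all genes fell from 0.28 to −0.29.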

How the data were processed

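RNA-seq was analysed for the 12 WT libraries. The authors prepared QuantSeq 3′ libraries, aligned single-end reads with STAR to hg19 and estimated counts with RSEM (version 1.2.3 in the submitters' processing notes) on Ensembl GRCh37, and deposited the estimated counts as whole numbers for 57736 genes. Symbols, positions and lengths came from GENCODE release 44 on GRCh37 (55501 genes matched, 98.8% of the counts). In edgeR 4.0.16 (R 4.3.3), genes were kept by filterByExpr (minimum count 10, total 15), scaled by TMM and fitted with series and treatment as terms. A model of 4 groups gave each series and their difference. P-values were adjusted by Benjamini-Hochberg over 15535 genes and called at an FDR of 5%. DESeq2 1.42.0 was an alternative. Same-numbered libraries were not treated as pairs. Replicates differed by 2.16 to 8.33 chi-square units per degree of freedom, so none were counted as 1. On simulated data, with 15138 genes tested, 179 of 200 changed genes were recovered for the response (11 false calls) and 127 of 200 for the difference (10 false calls). Far fewer genes were changed in the simulation than were called in the data (72.6%). It therefore cannot show how scaling and false calls behave when most genes change. The members and lists were chosen with earlier results of these data known. Genes named are the 12 protein-coding genes with the largest rise and the 12 with the largest fall that were called in both series without overlap at a mean of at least 10 CPM, the 5 largest gains and losses in CPM, the 2 largest rises and falls of each list and its members against the majority, the 5 largest differences between the series in each direction, the 5 most abundant genes at or under 3 counts in the other treatment, and CDKN1A, MDM2, GADD45A, TOP2A and TOP2B. Some genes that this rule or the lists hold are not reported here. Other list members were named as examples after their values were seen.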

Additional observations from a re-analysis of the deposited data

Results flagged for a closer look

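The response to etoposide differed between the series for 39 of the 152 named genes, by the test of the difference itself (edgeR, FDR of 5%). Of these, 10 were named for having the largest such differences, and of the other 142 named genes 29 differed, beside 8.83% of all genes tested. With 3 libraries a group, gaps of single libraries were not examined. Values are differences in log2 fold change, the ATRX series minus the DAXX series.

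Higher responses in the ATRX series were found for genes that fell less there. These were the G2 and mitosis genes LMNB1 (0.67), PLK1 (0.56), ANLN (0.52) and TOP2A (0.44), the replication genes RFC4 (0.83) and FEN1 (0.41), the recombination gene RAD54L (1.91), the histone gene H2BC12 (0.58), the YAP target gene CCN2 (0.68) and the sterol sensor gene INSIG1 (0.50). The value of RAD54L is uncertain, as it had 5, 1 and 1 counts with etoposide in the DAXX series and 9, 15 and 10 in the ATRX series.

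Increases were larger in the ATRX series for AKAP3 (1.82), SNAPC1 (1.77), ALOXE3 (1.76), RP11-782C8.2 (1.66), EGR2 (1.2), CSF1 (1.17), GADD45A (0.90), RRN3 (0.62), POLR1C (0.56), LSS (0.51), MALAT1 (0.50), RRAD (0.36), SNHG1 (0.33), RAD50 (0.27) and ZNF451 (0.27). ADAMTS1 (1.61) changed in opposite directions.

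Lower responses in the ATRX series were found for ENSG00000271698 (−1.73), SNORA19 (−1.21), NINJ1 (−1.07), ENSG00000273333 (−1.06), RILP (−1.05), TRIB3 (−0.64), FDXR (−0.43), H1-10 (−0.41), JUND (−0.40), TNFAIP2 (−0.37), LAMP2 (−0.35), VIM (−0.34) and NFKBIA (−0.34). Their cause was not tested.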

How the results depend on the processing

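Counts of genes called over both series stayed within 1.5 times the main counts of 5846 higher and 5438 lower under other scalings (RLE size factors, library totals), the DESeq2 Wald test, other filters, one model of all 24 libraries, a replicate block, without BCYRN1 and at an FDR of 1% (5103 and 4904). Exceptions were the 2203 genes at least 2-fold higher, which became 3968 without a filter on low counts and 1177 (against 1397 lower) with at least 10 counts in every library, and the difference between the series (700 and 672 genes), which became 289 and 237 with all 24 libraries in one model. Without 1 library at a time, genes higher over both series ranged from 5736 to 5862 and genes lower from 5349 to 5528. Genes whose response was higher in the ATRX series, smaller falls included, ranged from 457 (without control replicate 3 of the DAXX series) to 669. Leaving out a library also admits more genes through the filter. With the replicate block the counts were 5636 and 5296, and 590 and 545 for the difference. Same-numbered libraries had correlations of −0.031 to 0.0020, so libraries were not taken as pairs. No value of a named gene over both series reversed in 3010 comparisons, and 51 lost and 12 gained the call. Depth limits genes near 3 counts.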

Other observations

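Some genes tied to the design of the experiment also changed, and they were chosen here after their values were seen. TERT, the transgene carried by U87-T cells, was at 20.5 to 43.5 CPM (median 22.4) in control and at 5.67 to 9.16 CPM (median 7.05) with etoposide, a log2 fold change of −1.96 (adjusted p = 1.5e-08, edgeR). Whether its reads come from the transgene or the endogenous gene cannot be told apart here. DAXX, the histone chaperone, was at 31.96 to 36.7 CPM in control and at 18.2 to 22.3 CPM with etoposide, a change of −0.71 (adjusted p = 7.5e-09, edgeR), without overlap of the treatments. ATRX, its partner, changed by −0.26 (adjusted p = 2.2e-04, edgeR). Among the immune markers, ITGAM, an integrin of myeloid cells, was at 0 to 0.0806 CPM in control and at 0.247 to 1.85 CPM with etoposide, and the pan-leukocyte marker PTPRC had 1 to 6 and 3 to 14 counts.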
